A study of Mus musculus with 4 samples.

Results

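Open CpG-poor promoters of 3T3-L1 cells are described here: protein-coding promoters that hold few CpG dinucleotides and nevertheless carry a DNase-seq peak. A promoter entered the group when the most upstream start site of its gene had an observed over expected CpG ratio under 0.35 in the 1000 bp centred on it and a peak within 500 bp in both deposited peak lists. Of 20698 protein-coding promoters on chromosomes 1 to 19, 7336 were CpG-poor by this ratio, and 610 of these were open in both lists. The members were chosen by the presence of a peak in both lists, so peak presence and peak strength are given as a description, without a test.

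3T3-L1 is an immortalized line of mouse embryo fibroblasts that can be turned into adipocytes, and the labels give its strain as C57BL/6J and name no treatment. In DNase-seq, accessible DNA is cut by DNase I and the cut ends are sequenced. The data were 4 libraries from 2 biosamples, with 2 technical libraries for each, and the authors made 1 peak list and 1 hotspot list per biosample. With 1 list per biosample there was no spread between replicates, so shares have 95% Wilson intervals that cover counting error over genes, which are not replicates.

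CpG dinucleotides are depleted from most of the mouse genome, because methylated cytosine is readily lost by mutation, and are kept in CpG islands at the promoters of broadly used genes. Promoters without an island are more often those of genes used in particular cell types or conditions, such as genes for matrix proteins, cytokines and receptors. Many of them start transcription at a narrow position set by a TATA box, the site that binds the TATA-binding protein a short way upstream.

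The sequences below were chosen for the motif they hold and are not typical members. In the windows described with the motif results, a TATA box was found at 4.26% of members, an AP-1 match at 18.4% and a CTCF match at 4.10%. Each sequence is the 150 bases before the start site in gene sense, from the GRCm38.p6 reference (the mm10 chromosomes), not from the cells. The TATA box was searched as TATAAA on the sense strand with its start 40 to 20 bases before the start site. It is in capitals in 4 high-ranked members that hold it. S100a4 encodes a calcium-binding protein of motile fibroblasts, Ccl7 a chemokine for monocytes, Ecm1 an extracellular matrix protein and Mgst2 a microsomal glutathione transferase.
S100a4 (chr3:90603621-90603770, plus strand): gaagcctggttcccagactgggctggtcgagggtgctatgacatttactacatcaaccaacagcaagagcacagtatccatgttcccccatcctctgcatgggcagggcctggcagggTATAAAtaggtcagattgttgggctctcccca
Ccl7 (chr11:82045562-82045711, plus strand): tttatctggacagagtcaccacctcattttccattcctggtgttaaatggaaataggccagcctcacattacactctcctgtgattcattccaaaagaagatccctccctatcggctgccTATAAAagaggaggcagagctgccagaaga
Ecm1 (chr3:95739570-95739719, minus strand): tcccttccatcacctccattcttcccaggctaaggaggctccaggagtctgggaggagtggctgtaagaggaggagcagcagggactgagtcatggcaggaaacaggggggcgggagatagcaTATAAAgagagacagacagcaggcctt
Mgst2 (chr3:51661029-51661178, plus strand): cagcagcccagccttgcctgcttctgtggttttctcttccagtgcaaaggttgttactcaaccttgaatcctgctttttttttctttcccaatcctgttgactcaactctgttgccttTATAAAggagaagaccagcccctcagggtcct
The TATA box began at position -32 in S100a4 and Mgst2, at -30 in Ccl7 and at -27 in Ecm1, counted back from the start site.

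Fos and Jun proteins pair to form the transcription factor AP-1, which binds TGACTCA, read as TGAGTCA on the other strand. It was searched as TGANTCA, in which N is any base, so that matches with A or T at the centre were counted too. The next sequences are 3 high-ranked members with a match, in capitals, in the same 150 bases. Capitals mark only the motif for which a sequence is shown. Ccl7, Ecm1 and Mgst2, printed above, hold a match too, left in lower case. The match of Ifi204, TGATTCA, has T at its centre and so lacks the usual AP-1 site, which Gm14137 and Cpsf6 hold. Ifi204 encodes an interferon-induced DNA sensor, and Cpsf6 a subunit of the RNA cleavage factor, while Gm14137 is a predicted gene.
Ifi204 (chr1:173766920-173767069, minus strand): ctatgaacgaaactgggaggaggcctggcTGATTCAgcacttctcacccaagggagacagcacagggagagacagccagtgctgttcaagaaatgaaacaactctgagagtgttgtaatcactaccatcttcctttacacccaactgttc
Gm14137 (chr2:119174359-119174508, plus strand): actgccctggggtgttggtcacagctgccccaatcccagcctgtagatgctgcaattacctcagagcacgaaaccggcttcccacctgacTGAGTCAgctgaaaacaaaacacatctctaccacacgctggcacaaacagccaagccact
Cpsf6 (chr10:117380016-117380165, minus strand): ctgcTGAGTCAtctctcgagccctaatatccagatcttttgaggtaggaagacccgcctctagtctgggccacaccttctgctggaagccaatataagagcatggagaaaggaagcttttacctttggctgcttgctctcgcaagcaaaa
A match to the CTCF motif, the site of a zinc finger protein that shapes chromosome loops, is in capitals in the promoter of Samd9l, an interferon-induced antiviral gene. Samd9l was chosen after the values were seen.
Samd9l (chr6:3399573-3399722, minus strand): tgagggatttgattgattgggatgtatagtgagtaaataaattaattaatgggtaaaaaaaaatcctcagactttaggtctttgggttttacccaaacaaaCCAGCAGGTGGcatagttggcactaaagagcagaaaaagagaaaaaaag

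Open CpG-poor promoters were a small minority of their class. A peak in both lists was found at 8.32% of CpG-poor promoters (610 of 7336, 95% interval 7.70 to 8.97%), 41.5% of intermediate promoters with a ratio from 0.35 to 0.6 (1433 of 3454) and 76.8% of CpG-rich promoters (7614 of 9908). Over all promoters the share was 46.7%. A further 826 CpG-poor promoters (11.3%) had a peak in the biosample 1 list alone, 10 in the biosample 2 list alone, and 5890 (80.3%) in neither. Counted in the lists separately, 19.6% of CpG-poor promoters were open in biosample 1 and 8.45% in biosample 2. The biosample 1 list held 298793 peaks and the biosample 2 list 97430, and the depth of the libraries behind them is unknown, so the part of depth in the 826 was not tested.

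Inside the class the share was higher at higher CpG ratios. It was 2.01% at ratios under 0.05 (10 of 498), 8.70% from 0.15 to 0.20 (122 of 1403) and 18.6% from 0.30 to 0.35 (133 of 715). No step in the share was seen at the threshold, since it was 23.1% in the next class, from 0.35 to 0.40. The members just inside it were Slc2a10, Fam13a, Il6, Klhdc8b and Stc1, with biosample 1 scores from 112 to 143. The open promoters just outside it were Zfp108, Gstp2, Zfp457, Tmprss11f and Mamdc2, whose biosample 1 scores ran from 98 to 148.

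**Figure D1:**
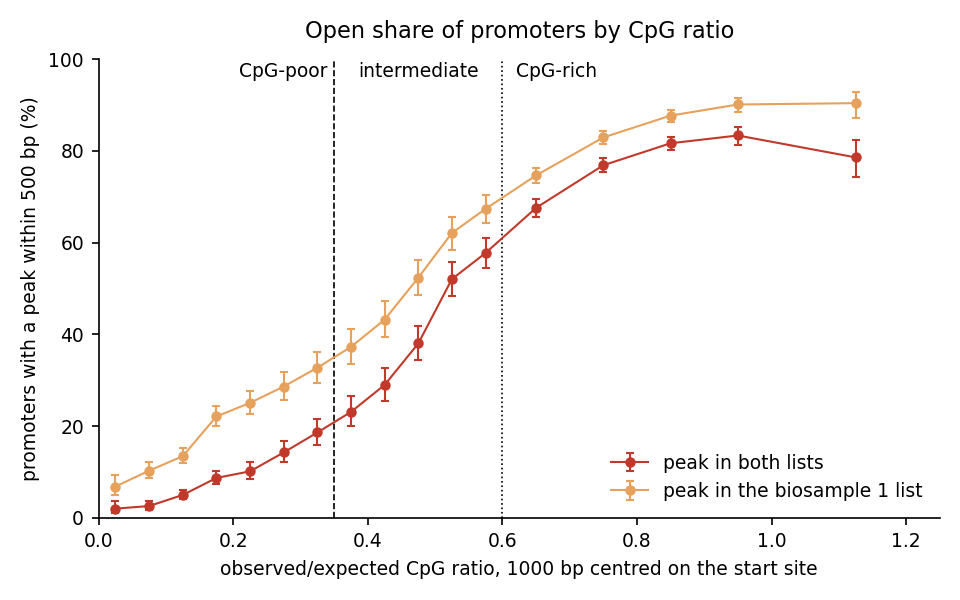
Share of promoters with a peak within 500 bp of the most upstream start site (vertical axis, percent) by the observed over expected CpG ratio (horizontal axis), in both lists (red) and in the biosample 1 list (orange). Points are classes of the ratio, bars are 95% Wilson intervals and vertical lines mark ratios of 0.35 and 0.6. The share in both lists ran from 2.01% in the lowest class to 18.6% in the class just under 0.35.

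GC content moved with this. In 5 equal classes of GC content, 0.941%, 5.89%, 8.75%, 11.4% and 14.8% of CpG-poor promoters were open, from the lowest GC to the highest. The CpG-poor class includes 1481 olfactory, vomeronasal and taste receptor genes, of which 12 were open. Without them 10.2% of CpG-poor promoters were open (598 of 5855), and the shares in 5 such classes were 5.13%, 8.43%, 11.2%, 11.2% and 15.2%. Members had a median of 14 CpGs in their 1000 bp and a median GC content of 49.65%, against 44.6% at CpG-poor promoters with no peak and 60.7% at open CpG-rich promoters. Only 4931408C20Rik, an unnamed gene model, had 0 CpGs in its 1000 bp, with a biosample 1 score of 95.

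The score is the authors' value per peak, a whole number up to 150, and it ranks peaks within 1 list. A peak's percentile is its rank among all peaks of its list, and the strongest peak near a start site stood for the promoter. Members ranked below open CpG-rich promoters in both lists. In biosample 1 their median percentile was 88.4, with quartiles of 77.6 and 95.1. In biosample 2 it was 64.9, with quartiles of 37.7 and 84.9. The medians of open CpG-rich promoters were 95.95 and 87.7. In biosample 1, 44.6% of members and 84.9% of open CpG-rich promoters were in the top 10% of the list. In biosample 2, 34.6% of members and 6.86% of open CpG-rich promoters were in its weaker 50%. CpG-poor promoters open in biosample 1 alone lay far lower there, at a median percentile of 39.3.

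**Figure D2:**
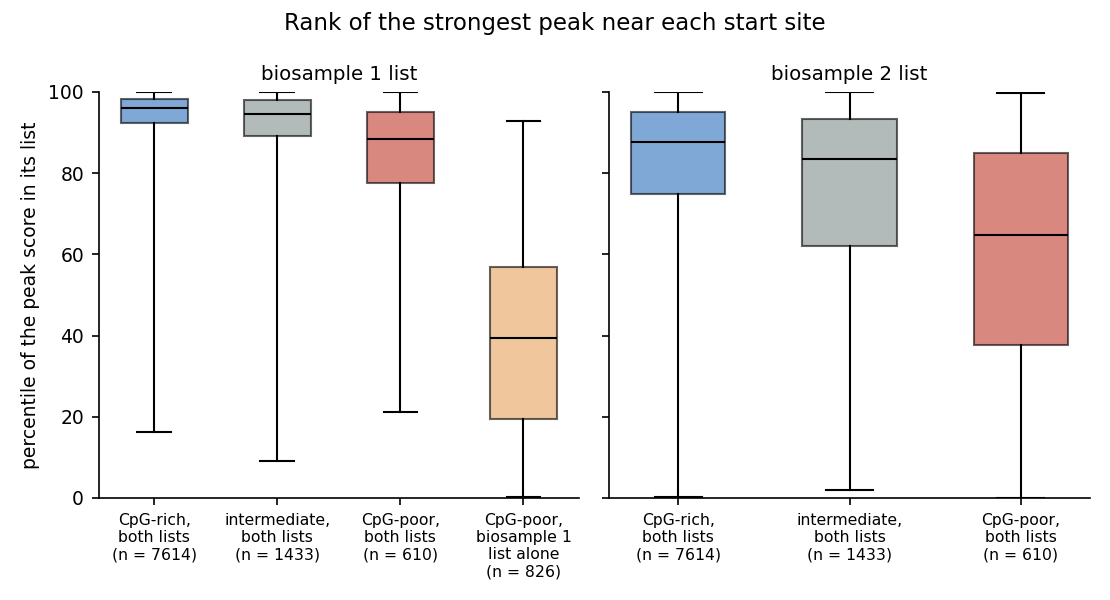
Percentile of the strongest peak near each start site (vertical axis) within the biosample 1 list (left) and the biosample 2 list (right), by promoter class. Boxes span the quartiles with the median as a line, and whiskers span the lowest and highest values. The 610 members (red) had medians of 88.4 and 64.9, below the 95.95 and 87.7 of open CpG-rich promoters (blue).

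The lists ordered the members alike. Spearman's rho between the scores of the lists was 0.925 over the 610 members and 0.858 over the 7614 open CpG-rich promoters. These points are genes that share their sequence and mapping in both lists, so the values are descriptive. Within the members the biosample 1 score was weakly related to the CpG ratio (rho 0.239) and to GC content (rho 0.184). Among open CpG-rich promoters those values were -0.0208 and -0.148.

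Accessible regions were also narrower at members. The widest hotspot within 500 bp, a region of enriched cleavage, had a median width of 918.5 bp in biosample 1 and 343 bp in biosample 2, against 1907.5 and 642 bp at open CpG-rich promoters. In biosample 2 the hotspot reached the cap of 100 on its −log10 q value at 57.9% of members and at 83.5% of open CpG-rich promoters. Pgs1, Dio2 and Obox5 had a biosample 2 peak without a biosample 2 hotspot. More than 1 biosample 1 peak lay within 500 bp at 44.8% of members and at 65.6% of open CpG-rich promoters. The members with the most were Gm14124 with 7, H2-T22 and Zfp984 with 6, and Gm14139 and Ifi204 with 5.

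The accessible site lay upstream of the start site more often than downstream. The centre of the strongest biosample 1 peak had a median position of -39.5 bp from the start site (quartiles -120 and 39.2). It was upstream at 65.6% of members, 61.2% of open intermediate promoters and 73.4% of open CpG-rich promoters. It lay up to 100 bp upstream at 36.1% of members (220) and at 44.996% of open CpG-rich promoters. Counted on either side, it was within 100 bp at 51.0% of members and at 59.9% of open CpG-rich promoters. It was more than 300 bp away at 22.3% and 11.2%. The strongest peaks of both lists met at 576 of 610 members (94.4%), which is close to the 93.1% of open CpG-rich promoters. The 610 members had 596 distinct strongest peaks, since 28 members shared theirs with a neighbour, among them Mpnd and Stap2, Il18 and Bco2, and Ifi203 and Mndal.

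**Figure D3:**
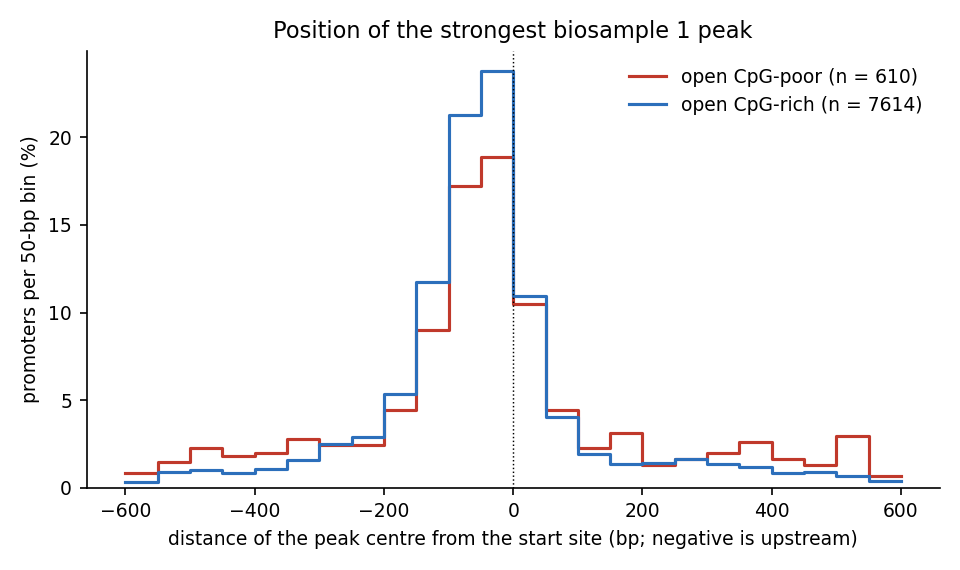
Distance of the centre of the strongest biosample 1 peak from the start site (horizontal axis, bp, negative is upstream) at open CpG-poor (red) and open CpG-rich promoters (blue). Lines give the percent of promoters in each 50-bp bin. Both groups were highest just upstream, and 22.3% of open CpG-poor promoters against 11.2% of open CpG-rich ones lay more than 300 bp away.

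The highest-ranked members mixed matrix, innate immune and metabolic genes. Lyz2, which encodes the lysozyme of macrophages, ranked the highest with scores of 150 in biosample 1 and 112 in biosample 2 and had a ratio of 0.10, or 5 CpGs. Its peak (chr10:117281996-117282145, mm10) was centred 250.5 bp inside the transcribed side of the start site. Slc25a45, a mitochondrial carrier gene, had scores of 148 and 107, and Emilin1, which encodes an elastic fibre glycoprotein, had 148 and 106. These members were in the top 1% of both lists. Ticam1, the adaptor of Toll-like receptors 3 and 4, had 147 and 107. Ifi204 had 147 and 105 with 6 CpGs, and Grn, which encodes the growth factor precursor progranulin, had 146 and 111. Others of the 15 highest were Ctnnd1 (p120 catenin), Med15 (a Mediator subunit), Oas1c (an oligoadenylate synthetase relative), Aox1 (an aldehyde oxidase), Clec2d (a lectin-like ligand), Angptl2 (an angiopoietin-like factor), Gm16253 and Gm14137, with biosample 1 scores from 144 to 148 and biosample 2 scores from 97 to 107.

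At the other end stood Itprid1 (52 and 15), Mpnd and Stap2 (44 and 20, 1 shared peak), Rhbdl2 (49 and 14) and the olfactory receptor gene Olfr435 (51 and 11), with biosample 1 scores first in each pair. Their strongest peaks were still present in both lists, as the choice of members requires. The percentile was higher in biosample 1 at 594 of 610 members, but ranks in lists of such different length are not comparable.

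Lyz2 and Cpsf6 lie on chromosome 10, 428 and 331 kb from the start site of Mdm2. The number of DNA copies there was not measured, and its part in their scores was not tested.

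Fibroblast and matrix genes were the list with the largest open share among the 31 lists of gene families and functions. Of its 20 CpG-poor promoters 12 (60.0%, interval 38.7 to 78.1%) were open in both lists, 5 in biosample 1 alone and 3 (Fbn1, Mfap5 and Sparc) in neither, against 8.32% of all CpG-poor promoters. The lists were drawn up with earlier results of these data known, so the count describes these genes. Pcolce, which encodes the enhancer of procollagen C-proteinase, had scores of 146 and 85. Col5a2, a fibril collagen gene, had 144 and 79, and S100a4 had 141 and 76. These 3 were in the top 10% of both lists. Col3a1 and Col1a1, which encode the chains of the main fibril collagens, had 138 and 68 and 134 and 65. The Col1a1 peak (chr11:94936156-94936305) lay over its start site. Ogn, Col6a1, Col6a3, Aspn, Dpt, Dcn and Postn, genes of small proteoglycans, microfibrils and adhesion proteins, had biosample 1 scores from 107 to 133 and biosample 2 scores from 29 to 72. Col1a2, the partner of Col1a1, had a peak in biosample 1 alone, with a score of 81 (percentile 64.2).

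Genes that remodel the matrix came next. Of 19 CpG-poor promoters of matrix proteases and their inhibitors 8 (42.1%) were open. They included Plat, the tissue plasminogen activator gene, with 140 and 84, and Adamts4, an aggrecanase gene, with 146 and 73. Mmp19, Ctsk, Plaur, Mmp1b and Mmp3 had biosample 1 scores from 74 to 109 and biosample 2 scores from 21 to 42. The neutrophil and macrophage enzymes Mmp8, Mmp9 and Mmp12 and the enamel enzyme Mmp20 had no peak in either list, and Mmp9 is named here after its value was seen. Among contractile genes 5 of 19 were open (26.3%). They were Cald1 (caldesmon, 144 and 95), Mylk (myosin light chain kinase, 139 and 67), Csrp1 (112 and 49), Acta2 (smooth muscle actin, 102 and 24) and Myh1, a skeletal myosin gene whose peak was centred at position -541.5 from the start site. The muscle genes Acta1, Actc1, Ckm and Actg2 had no peak.

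Interferon-induced genes formed the largest open group by number among the fixed lists. Of 53 CpG-poor promoters 22 (41.5%, interval 29.3 to 54.9%) were open in both lists, 16 more in biosample 1 alone and 15 in neither. The open members included DNA sensors of the Ifi200 family, guanylate-binding proteins, oligoadenylate synthetases and Ifit proteins. Beside Ifi204 and Oas1c the highest were Ifitm2, an entry inhibitor of viruses, with 143 and 80, and Ifi211 with 137 and 86. In 6 of the 22 the mean percentile lay under 60, with Gbp10 the lowest at 25.3. Many of these genes have near-identical neighbours, between which short reads can be misplaced, so single members are uncertain.

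Cytokine genes were open in a few cases each. Of 26 chemokine promoters 4 were open (15.4%), namely Ccl2 (144 and 76), Ccl7 (137 and 64), Ccl9 (108 and 31) and Ccl8 (79 and 18). Of 40 promoters in the interleukin list 5 were open (12.5%). Il6, an inflammatory cytokine gene also transcribed in fibroblasts, had 143 and 87, Il1r1, the interleukin 1 receptor gene, 136 and 71, and Il18, Il33 and Il23a had biosample 1 scores from 77 to 120. Tlr3, Tlr4 and Tlr1 were the open ones of 20 Toll-like receptor and inflammasome sensor promoters (15%), and 3 of 15 tumour necrosis factor ligand and receptor promoters were open (20%).

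Adipocyte genes had open shares near those of their CpG classes. Of 13 CpG-poor promoters 1 was open (7.69%, against 8.32% of all CpG-poor promoters), that of Plin4, a lipid droplet coat gene, with scores of 133 and 61. Fabp4, the fatty acid-binding protein of adipocytes, had a peak in biosample 1 alone (score 87), and 11 had none, among them Adipoq (adiponectin), Cd36 (a fatty acid transporter), Aqp7 (a glycerol channel) and Adrb3 (the beta 3 adrenergic receptor). Of the 20 adipocyte genes with a CpG ratio of 0.35 or more 13 were open (65%), against 67.7% of all promoters with such a ratio, so that 14 of the 33 listed genes were open in all.

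The fixed marker lists mix CpG classes, and over all promoters 46.7% were open. Of 20 fibroblast markers 16 were open in both lists, namely 7 of the 10 that are CpG-poor and 9 of the 10 with a higher ratio. Of 7 preadipocyte markers 2 were open, a share under that of all promoters, although 3T3-L1 is a preadipocyte line. The CpG-poor preadipocyte marker, Ly6a, had a peak in biosample 1 alone. Of 8 adipocyte markers 1 was open, of 5 smooth muscle markers 1 (Acta2), and of the markers of skeletal muscle (4), epithelium (5), endothelium (4) and neurons (4) 0. Of 7 blood markers, all CpG-poor, 2 were open, Lyz2 and Csf1r, the receptor gene of macrophage colony-stimulating factor, with scores of 125 and 44. The blood markers Ptprc, Adgre1, Cd3e, Cd4 and Cd79a had no peak in either list.

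Other families spanned the range. Open shares were 30% among S100 genes (3 of 10), 29.2% among aldo-keto reductases and glutathione transferases (7 of 24) and 26.6% among zinc finger genes (17 of 64, with Zfp120, Zfp950, Zfp983 and Zfp52 the highest). They were 15.4% for apolipoproteins (4 of 26), 12.5% for serpins (7 of 56), 11.4% for G protein-coupled receptors without chemosensory ones (5 of 44) and 8.54% for cytochrome P450 genes (7 of 82). Shares near or under that of all CpG-poor promoters were seen for keratins (2 of 26), lectin-like and natural killer receptors (4 of 55), Ly6 genes (1 of 14), solute carriers (8 of 115), CD antigens (4 of 60) and cornified envelope genes (4 of 93). The share was 0.806% among olfactory receptors (9 of 1117) and 0.824% among vomeronasal and taste receptors (3 of 364). None of 63 defensin, 25 kallikrein or 15 tetraspanin and claudin promoters was open in both lists. The lists of ribosomal and housekeeping genes, immediate early genes and fatty acid-binding proteins held at most 5 CpG-poor promoters each, with 0 open. All 22 listed cell cycle genes had a higher CpG ratio. Of families listed after values were seen, TRIM genes had 10 of 31 open, major histocompatibility genes 5 of 21, complement genes 6 of 26, galectins 4 of 9 and PYHIN genes, which include Ifi204, 5 of 13.

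**Figure D4:**
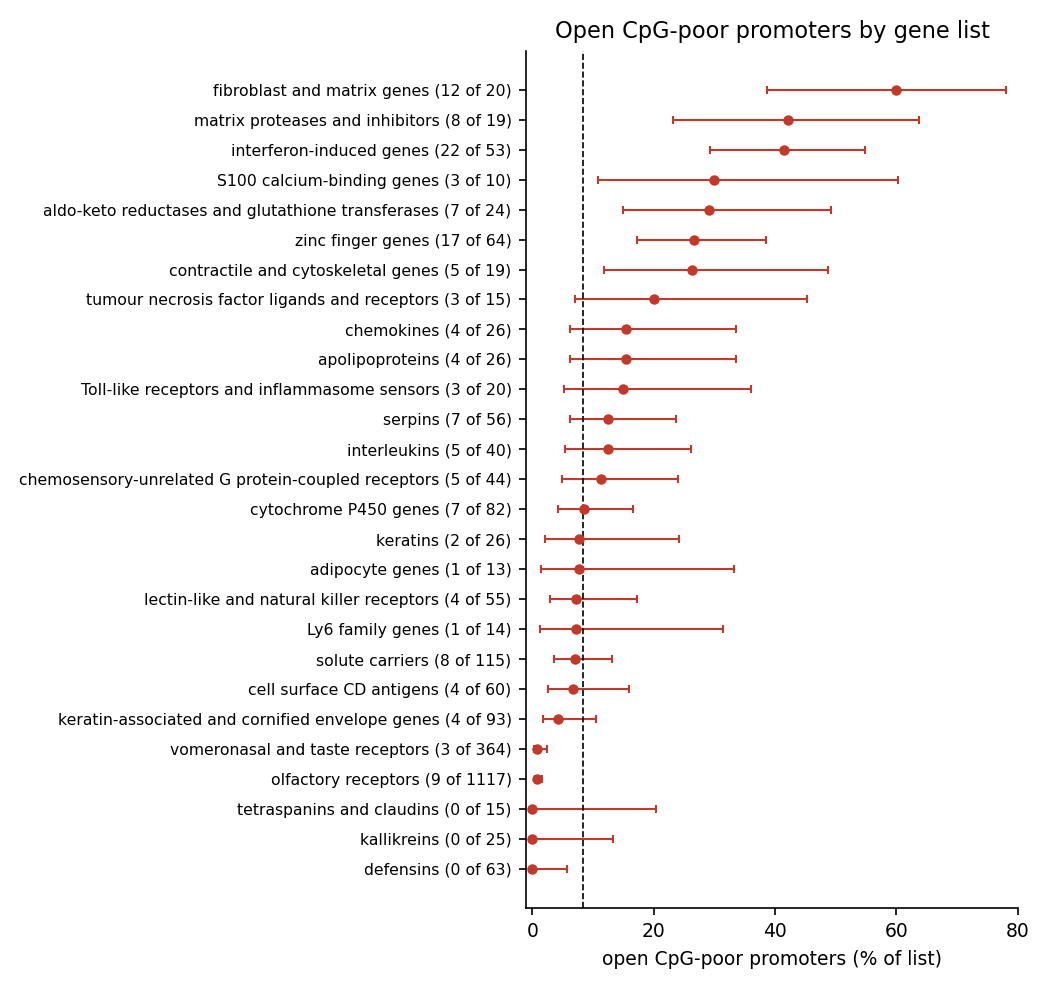
Share of CpG-poor promoters open in both peak lists (horizontal axis, percent) for each gene list with at least 10 of them (rows, with counts). Points are shares, bars are 95% Wilson intervals and the dashed line marks the 8.32% of all CpG-poor promoters. Fibroblast and matrix genes stood at 60.0%, and olfactory receptors at 0.806%.

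Some members lay near each other. Of the 610, 179 (29.3%) had another member within 100 kb, as did 21.9% of CpG-poor promoters open in biosample 1 alone and 10.4% of those with no peak (615 of 5890). These shares were computed after the other values were seen. The 179 include the 28 members that shared their strongest biosample 1 peak with a neighbour. A shared peak can make both neighbours members, while a promoter with no peak has none to share. The part of shared peaks in these shares was not tested. Of the members 87 lay in 26 runs of 3 or more. A run on chromosome 1 held 6 of 7 CpG-poor promoters over 136 kb, with Ifi211, Mndal, Ifi203, Ifi205 and the olfactory receptor genes Olfr433 and Olfr432. On chromosome 7 all 5 CpG-poor promoters of a run over 154 kb were open, with Trim12c, Trim30b, Trim30c, Trim30a and Trim30d, genes for regulators of innate immune signalling. Each run begins and ends at a member, and CpG-poor promoters were counted only between these ends. The counts are thus not open shares of whole gene clusters. Of the same families, the CpG-poor promoters of Trim5, Trim12a, Trim34b, Aim2, Ifi206, Ifi208, Ifi213 and Ifi214 had no peak in either list. Other runs held Aspn, Omd and Ogn (small proteoglycans), Ccl2, Ccl7 and Ccl8, C1rl, C1ra and C1s1 (complement proteases), and the class II genes H2-Ab1, H2-Aa and H2-Eb1. Neighbours made by duplication share sequence and are not independent of each other.

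TATA boxes were scarce among members, as they were among CpG-poor promoters with no peak. The TATA box was found at 26 members (4.26%, interval 2.93 to 6.17%), 3.51% of CpG-poor promoters open in biosample 1 alone and 5.52% of those with no peak. The share was 0.907% at open intermediate promoters, 0.604% at open CpG-rich promoters and 2.47% over all promoters. The intervals of members and of CpG-poor promoters with no peak overlap (4.96 to 6.13% for the latter). Beside the 4 members printed above, the highest-ranked were Lrrc14b, Cela1 (elastase), Tdrd7, Sprr1a (a cornified envelope protein), Krtap2-4 and Adamtsl2. Of the matrix genes Postn had a TATA box too, at position -28.

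AP-1 matches differed more than TATA boxes between members and CpG-poor promoters with no peak. From 250 bases before to 50 after the start site, TGANTCA was found on either strand at 18.4% of members, 13.4% of CpG-poor promoters open in biosample 1 alone, 9.95% of those with no peak, 5.86% of open intermediate and 3.57% of open CpG-rich promoters. Over all promoters it was 6.71%. Weighted to the GC content of the members, CpG-poor promoters with no peak had it at 8.57%. With only C or G allowed at the centre, a search added after the values were seen, the shares were 13.9% of members, 5.82% of CpG-poor promoters with no peak, 2.48% of open CpG-rich promoters and 4.40% of all promoters. Matches with A or T at the centre stood at 4.92% of members and 4.35% of CpG-poor promoters with no peak, with intervals that overlap (3.47 to 6.93% and 3.85 to 4.90%). Within the strongest biosample 1 peak, 150 bp long, it was found at 22.1% of members (135 of 610), 18.04% of those open in biosample 1 alone and 2.09% of open CpG-rich promoters. With C or G at the centre these shares were 18.2%, 14.4% and 1.68%. Serpinb8, Pcolce, Il6, Mylk and Col6a1 were among the members with a match in the peak. These are examples, and the share with a match was not computed by gene list.

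Members lay between other promoters and distal sites in this respect. Biosample 1 peaks that met a biosample 2 peak held an AP-1 match in 32.3% of 70595 sites over 1000 bp from any coding start site and in 6.58% of 17700 sites nearer to one. Over all 289298 biosample 1 peaks on these chromosomes it was 22.0%. With C or G at the centre the shares were 27.2%, 5.41% and 18.1%, beside 18.2% of members. These shares were computed after the other values were seen. The matches sat at the peak. In 50-bp bins, 9.02% and 10.3% of members had one in the bins on either side of the peak centre and between 0.984% and 2.62% in the bins over 150 bp away. Open CpG-rich promoters had 0.854% and 0.841% in those central bins. With the members cut into 4 equal classes by mean percentile, 27.5%, 19.7%, 20.4% and 20.9% had an AP-1 match in the peak, from the weakest class to the strongest. The interval of the weakest class (21.0 to 35.01%) overlaps those of the other classes.

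**Figure D5:**
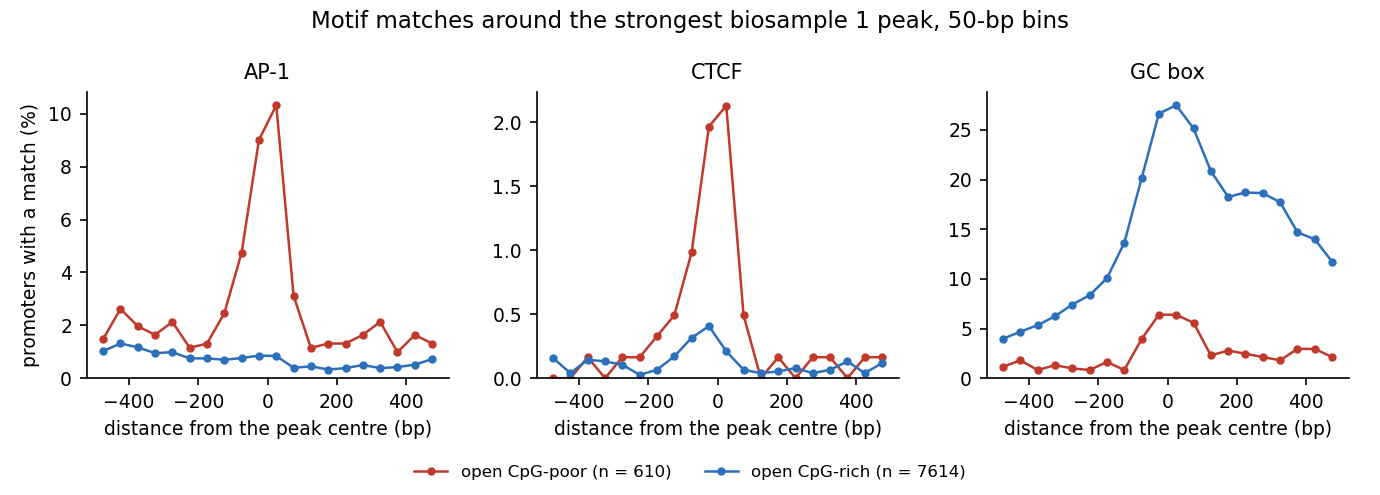
Percent of promoters with a motif match (vertical axis) by distance from the centre of the strongest biosample 1 peak (horizontal axis, 50-bp bins), for AP-1, CTCF and the GC box at open CpG-poor (red) and open CpG-rich promoters (blue). In the central bins 9.02% and 10.3% of open CpG-poor promoters had an AP-1 match. The vertical scales differ between the panels.

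CTCF matches were rarer, and the groups stood in another order than for AP-1. They were found within 250 bases before to 50 after the start site at 4.10% of members, 1.09% of CpG-poor promoters open in biosample 1 alone, 0.424% of those with no peak, 1.81% of open intermediate, 0.985% of open CpG-rich and 0.947% of all promoters. Members had the highest share for both motifs, but CpG-poor promoters with no peak lay above open CpG-rich ones for AP-1 and below them for CTCF. In the strongest peak the shares were 4.75% (29 members, among them Irf9, Apol8 and Serpinb6b) and 0.775% at open CpG-rich promoters. They were 9.10% in the distal shared peaks and 3.67% over all biosample 1 peaks. The GC box, GGGCGG, itself holds a CpG and so is tied to the ratio that chose the members. Members lay above CpG-poor promoters with no peak, as for AP-1 and CTCF, and below open CpG-rich promoters, unlike for AP-1 and CTCF. It was found at 21.0% of members, 7.16% of CpG-poor promoters with no peak, 70.6% of open CpG-rich promoters and 44.5% of all promoters. From the weakest to the strongest of those 4 classes of members it was found in 9.15%, 13.8%, 15.8% and 21.6% of peaks. The median CpG ratio of these classes rose too, at 0.200, 0.214, 0.243 and 0.270, and its part in these shares was not tested.

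The other motifs were searched in the same 300 bases on both strands. TEAD (CATTCC) was found at 18.9% of members and 16.2% of CpG-poor promoters with no peak, RUNX (TGTGGT) at 22.0% and 22.1%, ETS (GGAAGT) at 28.5% and 23.3%, and the CAGCTG E-box at 23.4% and 16.3%. C/EBP (TTGCNNAA) stood at 12.6% and 15.6%, the GATA factor motif, which reads AGATAA, at 11.8% and 17.5%, NF-kB at 11.3% and 6.54% and the CArG box of serum response factor at 1.48% and 1.63%. Weighted to the GC content of the members, CpG-poor promoters with no peak had the CAGCTG E-box at 20.03%, NF-kB at 8.40%, C/EBP at 13.8% and GATA at 13.9%, so that each of these differences from the members shrank by over 1.5 times. The shares over all promoters were 13.3% (TEAD), 15.2% (RUNX), 24.9% (ETS), 15.4% (CAGCTG), 10.5% (C/EBP), 9.84% (GATA), 9.37% (NF-kB) and 1.36% (CArG). For the NF-Y site (CCAAT), the CRE core (TGACGT), the other E-box (CACGTG), the GAS element (TTCNNNGAA), the NFI core (TTGGCA), the nuclear receptor core (AGGTCA) and the FOX motif (TGTTTAC) the share of members differed from that of CpG-poor promoters with no peak by under 5 percentage points. In that order their shares over all promoters were 38.6%, 8.73%, 7.77%, 7.97%, 13.7%, 14.7% and 3.03%. A match is a stretch of letters, not a bound site. Some motifs overlap in their letters, as TGANTCA may with a neighbouring element.

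The annotation bears on which start site is meant. A transcript of the best support level began at the most upstream start site of 64.8% of members, 46.7% of CpG-poor promoters with no peak and 79.9% of open CpG-rich promoters. Over all promoters the share was 66.4%, near that of members. Members with a single annotated start site numbered 204 (33.4%). Such promoters made up 37.8% of CpG-poor promoters open in biosample 1 alone and 44.96% of those with no peak. They made up 30.6% of open CpG-rich promoters and 36.8% of all promoters. Another, CpG-rich start site over 1000 bp away was annotated for 72 members (11.8%), and it was open as well in 52 (8.52%). Such a site was annotated for 10.8% of CpG-poor promoters open in biosample 1 alone, 4.72% of those with no peak and 5.43% of all promoters. It was open for 7.51%, 2.99% and 3.35% of these groups, in that order. Cpsf6 had another start site with a ratio of 1.11, Tdrd7 with 1.02 and Med15 with 0.68, so these genes also have an annotated CpG-rich promoter. Gapdh, named after its value was seen, is a member through its most upstream start site (ratio 0.29, scores 143 and 80), with another at 0.59. A start site of another coding gene lay within 1000 bp at 45 members (7.38%) and at 25.3% of open CpG-rich promoters. The share was 2.78% at CpG-poor promoters open in biosample 1 alone, 2.55% at those with no peak and 12.6% over all promoters. The strongest biosample 1 peak held no CpG at 74 members (12.1%) and at 0.118% of open CpG-rich promoters. The share was 21.3% at CpG-poor promoters open in biosample 1 alone and 24.3% over all biosample 1 peaks on these chromosomes. More than 50% of the strongest peak was repeat-masked at 11 members (1.80%). That share was 3.51% at CpG-poor promoters open in biosample 1 alone and 0.315% at open CpG-rich promoters.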

How the data were processed

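DNase-seq of 3T3-L1 cells was analysed from 4 libraries of 2 biosamples. Per the labels and the notes deposited with each library, the authors made 1 alignment per biosample on mm10 from both of its libraries and derived the lists from it. No source used here names the aligner or the caller. The deposited peak lists give a score per peak, a whole number up to 150 whose definition no source states. The deposited hotspot lists give a −log10 q value with a cap of 100, reached by 49.4% of biosample 1 and 42.8% of biosample 2 hotspots. Depth per library is unknown.

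Start sites came from protein-coding transcripts of GENCODE M21, with records of the same symbol merged, and sequence from GRCm38.p6, whose chromosome lengths held every interval. A score was used as a percentile within its list. Scripts ran in Python 3.11.15 with pandas 2.3.3 and numpy 2.4.6, and were tested on simulated data. No significance test was run, because each biosample has 1 list. Members and gene lists were chosen with earlier results of these data known. Named genes were the 15 highest and 5 lowest by mean percentile, the 5 nearest the ratio threshold on each side, the 5 with most peaks, those farthest apart in rank (not given, since ranks across lists of such different length are not comparable), the 10 highest with a TATA box, up to 4 open and 4 without a peak per list, and the markers. Some items that this rule gives are not reported here. For AP-1, any base was allowed at the centre, and a search with C or G alone was added after the values were seen. Alternatives changed the window, the ratio, the start site, the lists and the motif window.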

Additional observations from a re-analysis of the deposited data

How the results depend on the processing

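No paired analysis was possible because each biosample has 1 pooled list and the result comes from no test. Of 109 alternative values, 90 stayed within the set margin, 19 moved and 0 reversed. The share of CpG-poor promoters open in both lists was 6.84% with a window of 250 bp and 11.7% with 1000 bp, 7.20% with a ratio under 0.30 and 9.48% under 0.40. It was 5.44%, or 399 promoters, with the stronger 50% of each list, which also narrowed the difference in median percentile from open CpG-rich promoters to -3.49 in biosample 1 and -8.94 in biosample 2, from -7.52 and -22.8. The biosample 1 list alone gave 19.6%, or 1436 promoters, and a difference of -32.8. Alternatives chosen after seeing the data gave 10.2% without chemosensory receptors and 10.9% with start sites of support level 1 only. Open interferon-induced genes numbered 14 with the stronger 50% of each list and 38 with biosample 1 alone, against 22. Weighted to the GC content of members, the difference from CpG-poor promoters with no peak fell to 9.35 percentage points for the GC box, from 13.8, to -2.05 for GATA, from -5.73, and to 3.42 for the CAGCTG E-box, from 7.11. With only C or G at the centre of the AP-1 motif, added after seeing the data, 13.9% of members had a match, while the difference from CpG-poor promoters with no peak was 8.11 percentage points, against 8.41. The shares with a TATA box (3.26 to 5.24%) and, under the other alternatives run, with an AP-1 match (15.5 to 21.0%) stayed within the margin. Depth is unknown, so a missing peak does not show a closed promoter.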
